A study of Homo sapiens with 12 samples.

Results

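Homologous recombination, the Fanconi pathway and the checkpoint kinases were represented by 36 given genes. They were chosen as a group with earlier results of these data known. On the arrays, 31 of the 36 had at least 1 probe set annotated to that gene alone, and 27 of them had a probe set with a log2 signal of at least 5 on at least 2 arrays. For each of the 27, the probe set with the highest mean was used, beside 9130 genes chosen in the same way from 19775 with a probe set of their own. FANCB, FANCC, FANCF and FANCM stayed below the level filter, and their probe sets lay between 2.14 and 4.95 on every array. ATRIP shares its probe sets with TREX1, and BRCA2, RBBP8, FANCA and FANCD2 were not analysed here.

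The cells were HCT116, a colorectal carcinoma line deficient in mismatch repair. Cells were held at the start of S phase with 2 mM thymidine for 19 h, left in normal medium for 9 h, and held again with 2 mM thymidine for 16 h. After the second block was washed out, control cells received DMSO and were harvested at 0, 2 and 4 h and then at 6 h and every hour to 10 h, and the other cells received 0.1 mg/ml nocodazole, which blocks spindle assembly, and were harvested at 7, 8, 9 and 10 h. Each of these 12 conditions is 1 culture on 1 Affymetrix U133 Plus 2.0 array, so no condition has a replicate. All cultures share the thymidine blocks, and differences between hours stand in for the spread in every test below.

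Homologous recombination repairs a broken chromosome by copying the sister chromatid. The ends are first cut back to single strands, BRCA1, PALB2 and their partners act on these strands before the sister is copied, and helicases such as BLM take the joined molecules apart again. The Fanconi core complex, with the ubiquitin conjugase UBE2T, marks FANCI and its partner at DNA crosslinks. ATM and ATR sense breaks and stalled forks and act through CHEK2 and CHEK1 to delay division. Several of these genes are known E2F targets whose transcripts accumulate around the start of S phase.

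Stretches of 250 bases before the annotated start are shown for the members with the largest falls and rises from the early to the middle DMSO hours, as deposited, among those with a RefSeq promoter entry (GRCh38.p14). They are written 5′ to 3′ on the strand of the gene, with each CCAAT box (or its complement ATTGG) and each cell cycle homology letter run TTTGAA (or TTCAAA) in capitals. BRIP1, EXO1 and RAD51AP1 were lower and RAD50 and ATR higher at 6 to 8 h.
BRIP1, chr17:61863529-61863778, minus strand: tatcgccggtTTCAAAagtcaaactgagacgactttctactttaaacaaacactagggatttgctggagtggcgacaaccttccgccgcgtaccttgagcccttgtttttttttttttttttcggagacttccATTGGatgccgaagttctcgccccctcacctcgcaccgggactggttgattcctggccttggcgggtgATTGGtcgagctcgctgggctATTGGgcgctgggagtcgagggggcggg
EXO1, chr1:241847954-241848203, plus strand: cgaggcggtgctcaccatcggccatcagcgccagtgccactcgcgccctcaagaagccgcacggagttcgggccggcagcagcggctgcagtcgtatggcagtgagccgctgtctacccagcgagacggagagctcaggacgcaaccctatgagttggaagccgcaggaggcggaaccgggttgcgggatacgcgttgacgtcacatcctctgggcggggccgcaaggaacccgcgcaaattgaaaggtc
RAD51AP1, chr12:4538640-4538889, plus strand: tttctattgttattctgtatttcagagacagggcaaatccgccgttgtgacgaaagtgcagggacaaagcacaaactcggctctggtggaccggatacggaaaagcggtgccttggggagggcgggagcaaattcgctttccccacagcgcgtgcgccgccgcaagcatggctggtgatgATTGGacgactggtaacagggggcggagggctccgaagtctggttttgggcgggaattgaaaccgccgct
RAD50, chr5:132556727-132556976, plus strand: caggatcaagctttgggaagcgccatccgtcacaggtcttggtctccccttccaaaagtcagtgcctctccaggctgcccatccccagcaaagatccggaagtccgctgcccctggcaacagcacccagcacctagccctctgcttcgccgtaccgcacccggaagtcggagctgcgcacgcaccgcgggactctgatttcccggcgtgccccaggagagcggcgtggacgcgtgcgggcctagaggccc
ATR, chr3:142578734-142578983, minus strand: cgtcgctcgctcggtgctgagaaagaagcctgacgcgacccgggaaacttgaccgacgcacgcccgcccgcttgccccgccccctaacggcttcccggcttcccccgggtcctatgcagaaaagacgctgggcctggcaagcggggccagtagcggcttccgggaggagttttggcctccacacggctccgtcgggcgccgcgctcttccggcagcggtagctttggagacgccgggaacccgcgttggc
The BRIP1 stretch holds 3 CCAAT boxes, at -117, -49 and -28 from the start, and 1 TTTGAA at -240. RAD51AP1 holds 1 CCAAT box at -70, and the stretches of EXO1, RAD50 and ATR hold none of the letters searched. The stretch shown for EXO1 is from 1 of its 2 RefSeq entries, and the other entry held none of these letters. EXO1 has an E2F-type run, TTTCGCGC, beginning 4 bases downstream of its start base, outside the stretch shown. Over the full 300-base windows on both strands, 18 of the 32 given genes with an entry held a CCAAT box (56.25%), against 39.7% of all 27305 genes in the table. An E2F-type run (TTTCCCGC, TTTGGCGC or TTTCGCGC) was found in 5 of the 32 (15.6%) against 3.30% of all genes. TTTGAA was found in 4 of the 32 (12.5%) against 18.2%. Over the 23 kept members with an entry these shares were 60.9%, 13% and 13%, in the same order. These are matches of letters and not measured binding.

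The arrays differed in their general level, which bears on every signed value below. The median log2 signal over the kept probe sets was 8.59 to 9.13 on the DMSO arrays, 8.90 and 8.99 on the nocodazole arrays of 7 and 8 h, and 8.39 and 8.28 on those of 9 and 10 h. The DMSO array of 4 h had a mean 18S ribosomal RNA signal of 8.32, against 3.55 to 4.05 elsewhere. Values are therefore given as deposited and again after quantile normalization, which gives every array the same distribution. Of 10 reference genes of G2 and mitosis, the median signal was 10.47 at 0 to 4 h, 12.19 at 6 to 8 h, 11.83 at 9 and 10 h of DMSO and 11.88 at 9 and 10 h of nocodazole. The median of 9 S phase reference genes was 12.19, 11.97, 12.41 and 11.48 in the same windows, and CCNE2, the cyclin of S phase entry, averaged 10.57 at 9 and 10 h of DMSO and 3.55 at those hours of nocodazole. The S phase reference was thus lowest at 9 and 10 h of nocodazole, where several members were lower too. It was highest at 9 and 10 h of DMSO, where BRIP1, FANCI and RAD51AP1 were lower than at 0 to 4 h. Its part in the values of the members was not tested. EPCAM, an epithelial surface protein, lay between 13.94 and 14.36, and 7 of 8 markers of blood, stroma, muscle, liver and glia stayed below the level filter. VIL1, LGALS4 and CEACAM5, markers of differentiated colon, were also below it.

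Over the DMSO hours some members, BRIP1 and RAD51AP1 first among them, fell after S phase began, RAD50 rose, and EXO1 and MSH6 passed the curve test with their highest array at 10 h. In bulk cultures fewer cells of a stage and less RNA per cell cannot be told apart. On the deposited scale 14 of the 27 genes had their highest DMSO array at 0, 2 or 4 h (51.9%, against 30.8% of all genes), and 10 had it at 10 h (37%, against 38.6%). After quantile normalization 16 of 27 were highest early (59.3%, against 54.7%), a share close to that of all genes, and 7 at 10 h (25.9%, against 14.3%). From 0 to 4 h to 6 to 8 h the median change of the members was -0.15 on the log2 scale as deposited, beside 0.06 for all genes, and -0.35 beside -0.10 after quantile normalization. The curve test, a spline with 3 degrees of freedom over the 8 DMSO hours (limma, Benjamini-Hochberg adjusted over all 9130 genes), passed an adjusted p of 0.05 for 9 members as deposited, against 21.8% of all genes, and for 15 after quantile normalization, against 40.1%. BRIP1, EXO1, FANCG, FANCI, MSH6, RAD50, RAD51AP1 and RAD51C passed on both scales, and ATM as deposited only. BARD1, BLM, BRCA1, FANCL, PALB2, RAD54B and RMI1 passed after quantile normalization only. Without the 9 h array 4 passed as deposited (EXO1, FANCI, MSH6 and RAD51AP1), and without the 0 h or the 2 h array 5 did, BRIP1 being the other. EXO1, FANCI and RAD51AP1 passed with each hour left out, on both scales.

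**Figure D1:**
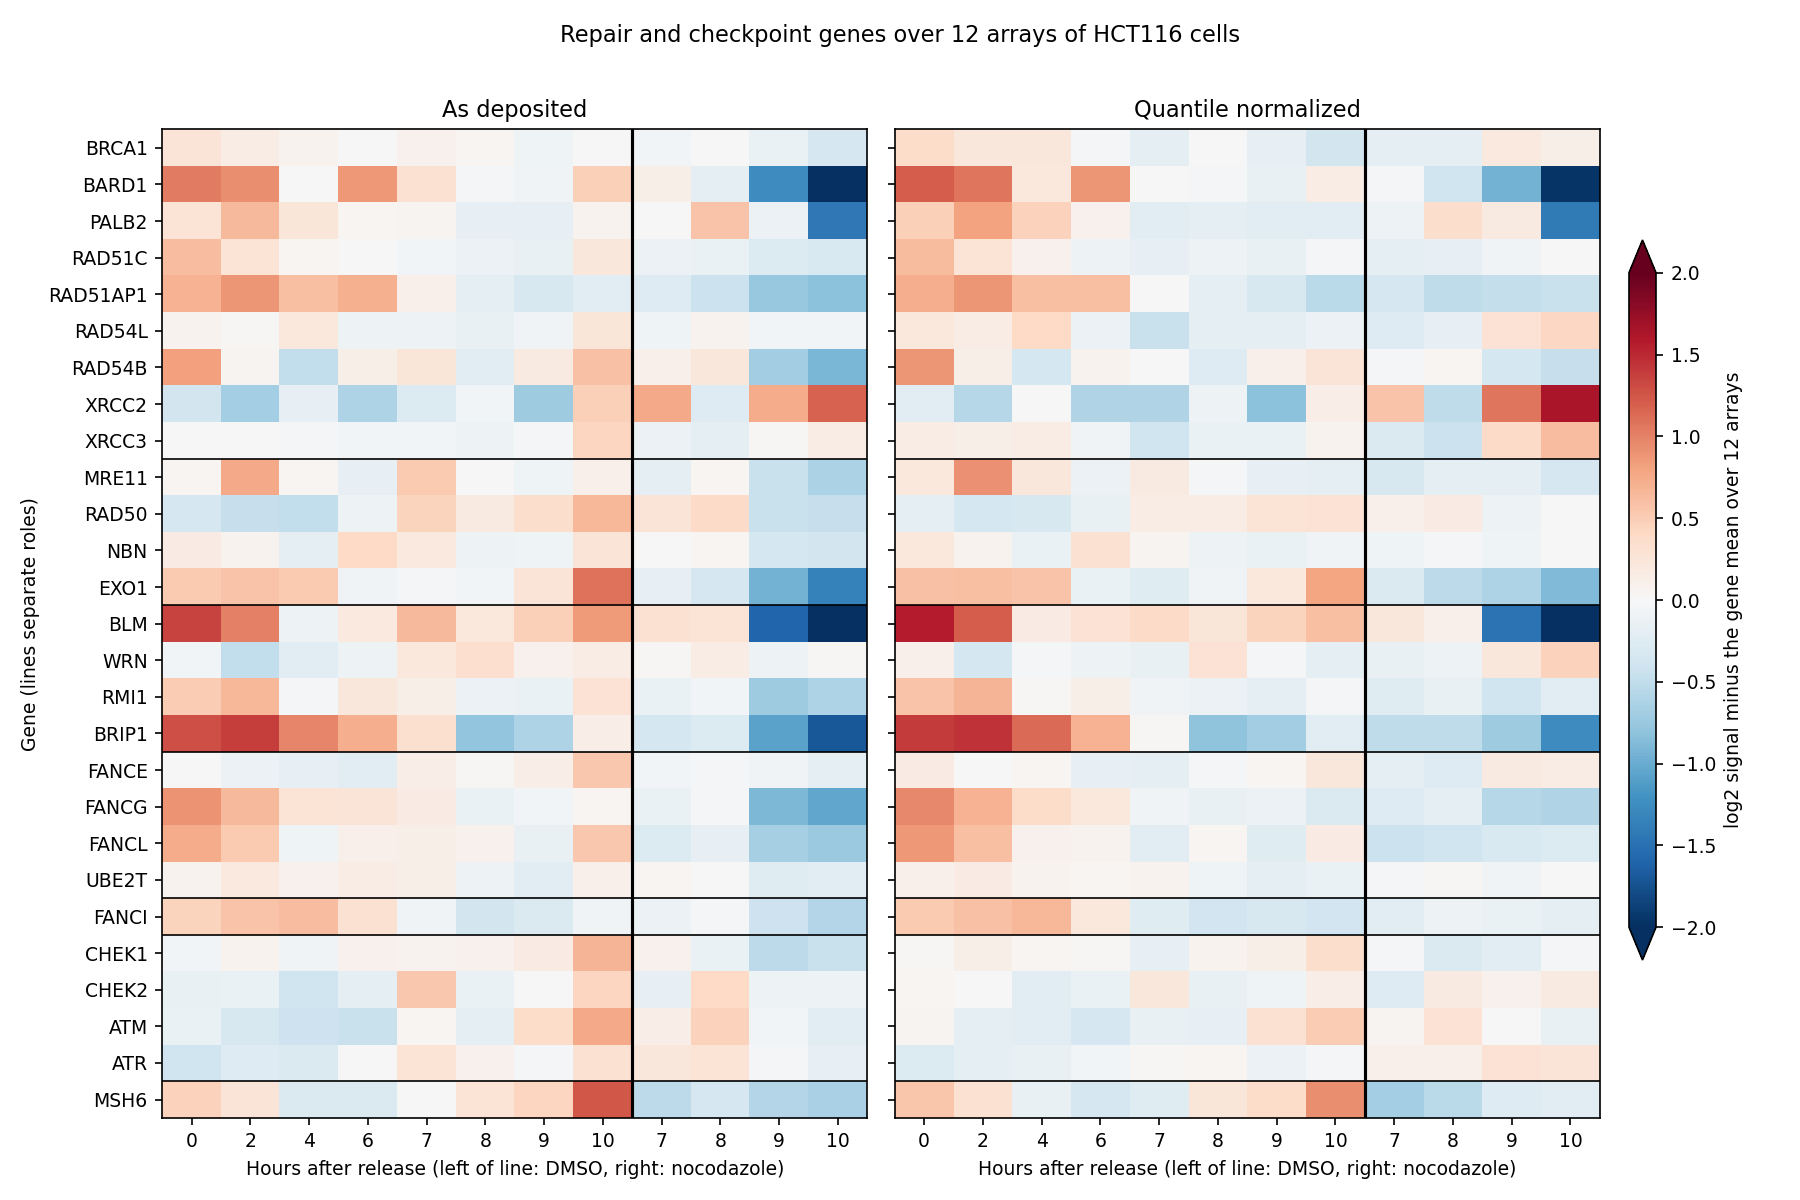
Colour shows the log2 signal of each of the 27 genes minus its own mean over the 12 arrays, with DMSO hours left of the vertical line and nocodazole hours right of it, as deposited (left panel) and quantile normalized (right panel). BRIP1, BARD1, BLM and RAD51AP1 are red on the first arrays, RAD50, EXO1 and MSH6 are red at 10 h of DMSO on both scales, and BLM and BARD1 reach the darkest blue at 10 h of nocodazole.

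The members that passed any test are given below as log2 signals in the order of the harvest hours, 8 values with DMSO and then 4 with nocodazole, as deposited unless stated. BRIP1, a helicase that binds BRCA1 and is also known as FANCJ, read 10.01, 10.11, 9.70, 9.45, 9.05, 7.95, 8.11 and 8.85 with DMSO and 8.37, 8.45, 7.66 and 7.02 with nocodazole. Its signal was 9.70 or more through 4 h, was lowest at 8 h, and rose again by 10 h, still below every early array. The difference of 9 and 10 h from 0 to 4 h was -1.46 ± 0.41 (SE, adjusted p = 0.0478), and -1.78 ± 0.37 (SE, adjusted p = 0.0162) after quantile normalization. A second BRIP1 probe set, with signals of 5.86 to 7.23 on the DMSO arrays, went the other way, by 0.53 as deposited.

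RAD51AP1, which binds DNA and acts in strand joining, read 11.89, 12.07, 11.79, 11.89, 11.28, 10.99, 10.87 and 10.96 with DMSO and 10.93, 10.76, 10.43 and 10.37 with nocodazole. It held its level through 6 h and then fell, so that the 4 DMSO arrays from 7 h on lay below the 4 before them. The late difference was -0.999 ± 0.234 (SE, adjusted p = 0.0278), and -1.16 ± 0.21 (SE, adjusted p = 0.0129) after quantile normalization. FANCI, the partner that the Fanconi core complex marks, read 11.22, 11.34, 11.40, 11.08, 10.70, 10.40, 10.49 and 10.71 and 10.66, 10.75, 10.36 and 10.19. It rose slightly to 4 h and was lowest at 8 h, and its late difference was -0.72 ± 0.19 (SE, adjusted p = 0.0415), and -0.94 ± 0.16 (SE, adjusted p = 0.012) after quantile normalization. Its probe sets disagreed, since 1 other differed by -0.27 and another, at DMSO signals of 7.43 to 8.48, by 0.69 as deposited.

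FANCG, a core complex subunit, read 10.88, 10.63, 10.26, 10.25, 10.15, 9.86, 9.93 and 10.02 and 9.84, 9.97, 9.08 and 8.94. The DMSO values dropped from the first array to 8 h and stayed low, with a late difference of -0.61 ± 0.20 (SE, adjusted p = 0.0753), and of -0.88 ± 0.19 (SE, adjusted p = 0.0169) after quantile normalization. PALB2, a binding partner of BRCA1, read 6.52, 6.89, 6.48, 6.28, 6.30, 6.08, 6.07 and 6.31 and 6.23, 6.81, 6.12 and 4.81. Its late difference was -0.44 ± 0.19 (SE, adjusted p = 0.153), and -0.79 ± 0.19 (SE, adjusted p = 0.0234) after quantile normalization, so the call rests on the scale. The nocodazole array of 10 h gave by far its lowest value.

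BRCA1 itself varied little as deposited, with signals of 9.52, 9.42, 9.34, 9.27, 9.36, 9.31, 9.19 and 9.27 over the DMSO hours and 9.23, 9.28, 9.14 and 8.94 with nocodazole. Its DMSO values spanned 0.33 as deposited and 0.73 after quantile normalization, where it passed the curve test. Its late difference was -0.19 ± 0.14 (SE, adjusted p = 0.358), and -0.54 ± 0.13 (SE, adjusted p = 0.0266) after quantile normalization, while a second probe set was higher by 0.32 as deposited. UBE2T read 11.95, 12.06, 11.96, 12.02, 11.99, 11.77, 11.66 and 11.97 and 11.91, 11.88, 11.64 and 11.64, and its small late difference passed only after quantile normalization, at -0.27 ± 0.08 (SE, adjusted p = 0.0473). RAD51C, which acts in homologous recombination, read 11.93, 11.58, 11.36, 11.30, 11.27, 11.19, 11.17 and 11.54 and 11.20, 11.19, 11.03 and 11.01. It was highest on the 0 h array, and it passed the curve test (adjusted p = 0.04 as deposited and 0.000862 after quantile normalization) but no window difference.

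RAD50 and ATM went the other way. RAD50, the strut of the complex that holds and trims broken ends, read 8.54, 8.42, 8.37, 8.77, 9.33, 9.06, 9.23 and 9.53 with DMSO and 9.13, 9.26, 8.43 and 8.41 with nocodazole. All DMSO arrays from 6 h on lay above the 3 early ones, and the late difference was 0.94 ± 0.20 (SE, adjusted p = 0.0214), and 0.57 ± 0.15 (SE, adjusted p = 0.0287) after quantile normalization. A second RAD50 probe set was higher too, by 0.72 as deposited. ATM, the kinase activated at breaks, read 5.06, 4.87, 4.78, 4.74, 5.24, 5.01, 5.56 and 5.95 and 5.32, 5.66, 5.14 and 4.98, close to the level filter. Its late difference was 0.85 ± 0.21 (SE, adjusted p = 0.0317) as deposited, with both late arrays above all others of DMSO, and 0.53 ± 0.18 (SE, adjusted p = 0.061) after quantile normalization. MRE11 and NBN, the partners of RAD50, did not pass, with late differences of -0.27 and 0.07 as deposited. Other NBN probe sets differed by 0.06, 0.50 and 0.85 as deposited, and by -0.27, 0.17 and 0.52 after quantile normalization, so those of NBN disagreed.

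EXO1 and MSH6 had their highest DMSO array at 10 h, and for neither did a difference of 9 and 10 h from earlier hours pass on either scale. EXO1, the nuclease that extends resection and also acts in mismatch repair, read 10.65, 10.70, 10.64, 10.05, 10.10, 10.07, 10.38 and 11.22 with DMSO. Its 3 middle arrays lay below the early ones and the 10 h array above all, and the change to 6 to 8 h was -0.59 ± 0.19 (SE, adjusted p = 0.108), and -0.75 ± 0.15 (SE, adjusted p = 0.0249) after quantile normalization. MSH6, a subunit of the mismatch sensor, read 10.22, 10.01, 9.47, 9.46, 9.76, 10.03, 10.18 and 11.00, with its lowest values at 4 and 6 h and its highest at 10 h. Both passed the curve test as deposited, with adjusted p = 0.00872 for EXO1 and 0.00788 for MSH6. From 6 to 8 h to 9 and 10 h the differences were 0.73 for EXO1 and 0.84 for MSH6 as deposited, with adjusted p = 0.855 and 0.912 in limma. A second MSH6 probe set differed from early hours by 0.72 at 6 to 8 h, against -0.15 for the first, and by 1.95 at 9 and 10 h, against 0.69.

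BARD1, the partner of BRCA1 in its ubiquitin ligase, read 8.82, 8.71, 7.78, 8.65, 8.09, 7.75, 7.71 and 8.26, BLM read 8.12, 7.78, 6.68, 6.97, 7.42, 6.99, 7.25 and 7.62, and RAD54B, a motor protein of strand exchange, read 10.42, 9.65, 9.10, 9.71, 9.84, 9.36, 9.77 and 10.19 over the DMSO hours. Each had its highest value at 0 h and a low value at 4 h, the array with the high 18S signal. RMI1, which works with BLM, read 11.06, 11.22, 10.52, 10.78, 10.67, 10.44, 10.42 and 10.85, and FANCL, the core complex ligase, read 9.50, 9.28, 8.67, 8.86, 8.87, 8.84, 8.61 and 9.29. These 5 passed the curve test only after quantile normalization, with adjusted p from 0.00733 (BLM) to 0.0433 (BARD1). CHEK1 read 9.97, 10.10, 9.97, 10.11, 10.10, 10.12, 10.20 and 10.71, and ATR read 9.28, 9.42, 9.39, 9.67, 9.94, 9.75, 9.65 and 9.99. XRCC2, which acts in homologous recombination, read 6.59, 6.28, 6.80, 6.35, 6.69, 6.91, 6.25 and 7.43. None of the 3 passed a DMSO test on either scale with the probe set used. A second ATR probe set was higher at 9 and 10 h than at 0 to 4 h by 1.12 as deposited, against 0.45 for the first. After quantile normalization these differences were 0.74 and 0.12.

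By window, no member passed from 0 to 4 h to 6 to 8 h as deposited. Of all genes, 5.41% were called higher there and 0.635% lower. An unadjusted p under 0.05 was found for 8 members, beside 2274 of all 9130 genes. After quantile normalization BRIP1, EXO1, FANCG, FANCI and PALB2 were called lower, 5 of 27 against 4.6% of all genes, and none higher, against 5.08%. Between 6 to 8 h and 9 and 10 h no member was called on either scale, against 0% of all genes on both. There 3 and 4 members had an unadjusted p under 0.05, beside 470 and 735 of all 9130 genes. From 0 to 4 h to 9 and 10 h, RAD50 and ATM were called higher as deposited, against 11.9% of all genes, and BRIP1, FANCI and RAD51AP1 lower, against 2.45%. After quantile normalization RAD50 was called higher, against 9.16%, and BRCA1, BRIP1, FANCG, FANCI, PALB2, RAD51AP1 and UBE2T lower, 7 of 27 against 13.7%. The late arrays lay below every early one for 6 members as deposited (22.2%, against 20.2% of all genes) and for 13 after quantile normalization (48.1%, against 42.2%), shares close to those of all genes. BRCA1, BRIP1, FANCG, FANCI, PALB2 and RAD51AP1 did so on both scales. The late arrays lay above every early one for 7 members as deposited (25.9%, against 32.9% of all genes). After quantile normalization they did for 4 (14.8%, against 21%). As deposited, no member, and no gene of the 9130, was called late against early when the 2 h or the 10 h array was dropped, 2 when that of 0 h was, and 3 each for those of 4 h and 7 h. After quantile normalization leaving out the 2 h array left 2 calls, leaving out that of 4 h gave 12, and no member was called when that of 9 h or 10 h was dropped. Over all 9130 genes 577 were called without 2 h and 1964 without 4 h, against 2083 with every hour. Without 2 h the count of the members fell with that of all genes, and without 4 h it rose while that of all genes did not. The runs without 9 h or 10 h leave 1 late DMSO array. The fall from early to middle hours was called for no member after quantile normalization when the 2, 7 or 8 h array was dropped, for 1 when that of 0, 9 or 10 h was, for 9 without 4 h and for 8, RAD50 being higher, without 6 h. In the runs without 2, 7 or 8 h no gene of the 9130 was called, and those without 4 h and 6 h called 1169 and 2483.

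**Figure D2:**
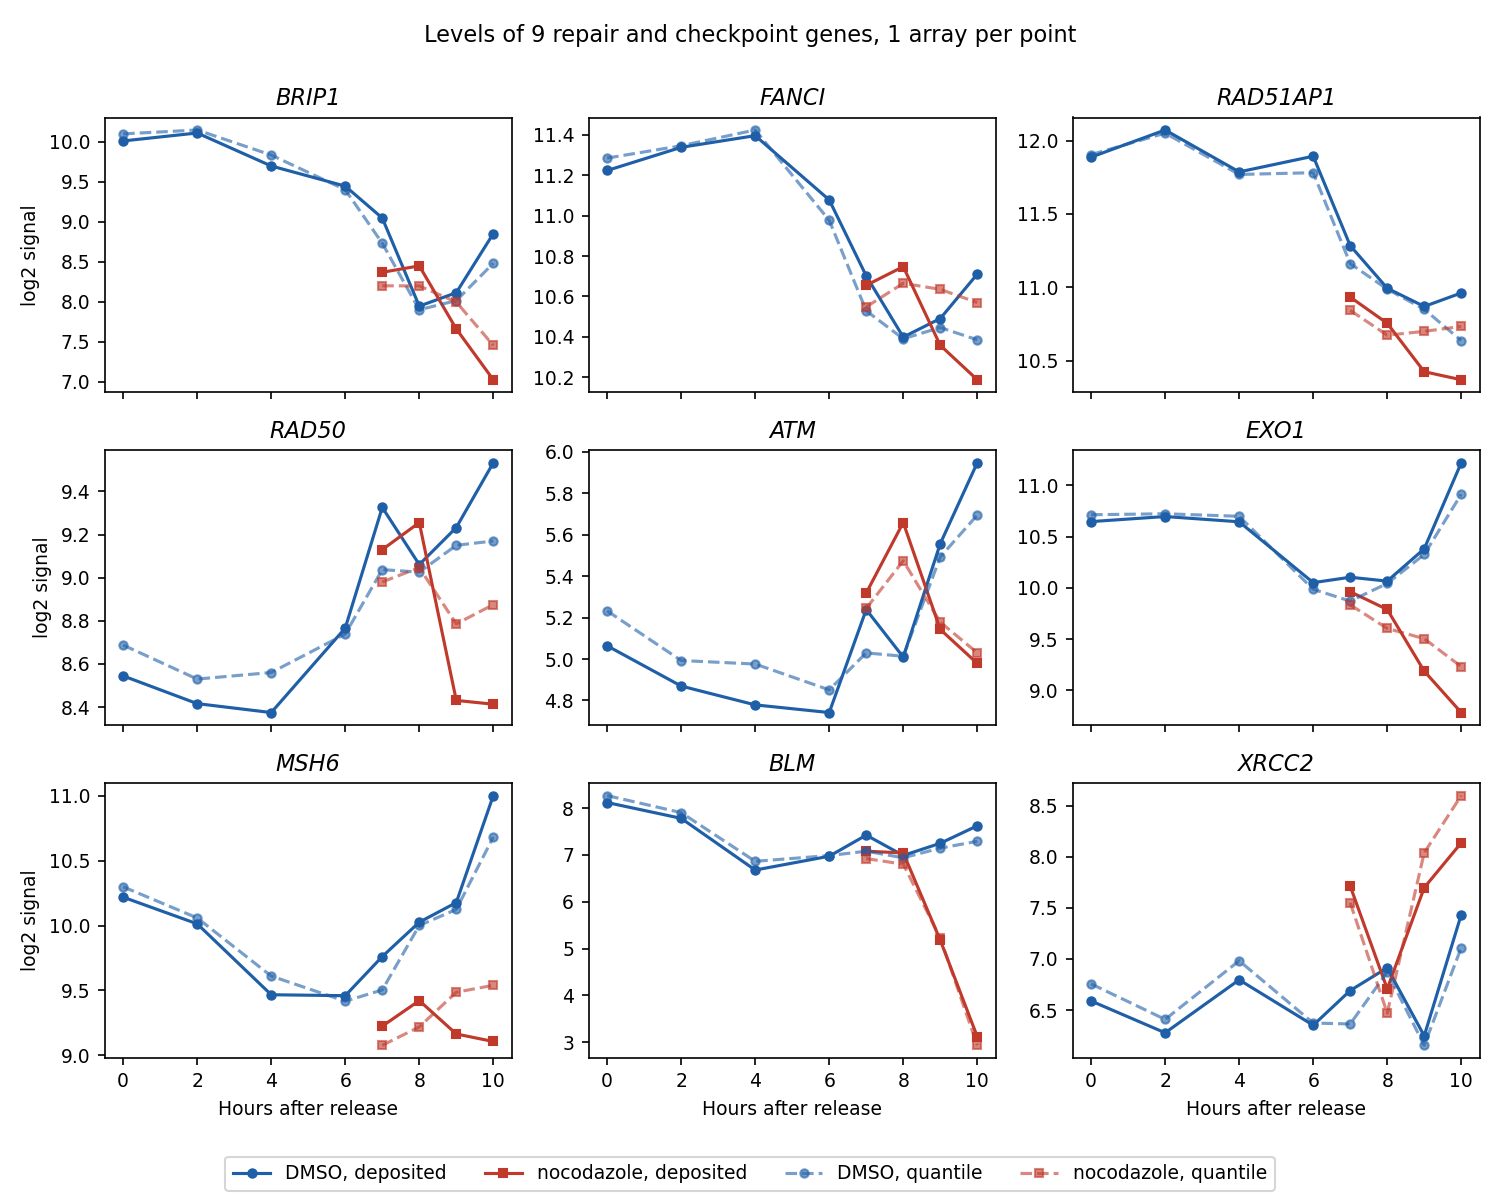
Log2 signal of 9 genes by harvest hour, with DMSO in blue circles and nocodazole in red squares, as deposited (solid) and quantile normalized (dashed), 1 array per point and no error bars. BRIP1, FANCI and RAD51AP1 fall after 4 to 6 h of DMSO, RAD50 rises, EXO1 and MSH6 peak at 10 h, and BLM drops to 5.18 and 3.12 at 9 and 10 h of nocodazole on the deposited scale.

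With nocodazole, differences from DMSO were called at 9 and 10 h and not at 7 and 8 h, and BLM, EXO1, MSH6, BARD1 and RAD54B had the largest that passed on both scales in the lower direction. At 7 and 8 h no member passed on either scale, against 0.0219% of all genes as deposited and 0.186% after quantile normalization. On these scales 1 and 2 members had an unadjusted p under 0.05, beside 179 and 638 of all 9130 genes. Over all 4 shared hours, with the hour as a block, no member passed either, against 0% and 0.394%. Here 7 and 6 members had an unadjusted p under 0.05, beside 953 and 1622 of all 9130 genes. At 9 and 10 h, 13 members were called lower as deposited, against 40.8% of all genes, and XRCC2 higher, against 4.42%. The median difference of the members was -0.55, beside -0.44 for all genes, so the arrays as a whole were shifted the same way. After quantile normalization the medians were -0.09 and -0.0017, BARD1, BLM, EXO1, FANCG, MSH6 and RAD54B were called lower, 6 of 27 against 17.7% of all genes, and ATR, BRCA1 and XRCC2 higher, 3 of 27 against 17.4%. Without the 10 h arrays fewer members were called on both scales. That run leaves 1 array per treatment at the late hours, and after quantile normalization the count over all genes fell as well. BLM, EXO1 and MSH6 were called lower with each hour left out, on both scales, whereas BARD1 and RAD54B lost the call without 10 h on 1 scale or both.

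BLM, the helicase lost in Bloom syndrome, had the largest nocodazole difference of the 27 on both scales. It read 7.08 and 7.04 at 7 and 8 h of nocodazole, beside 7.42 and 6.99 with DMSO, and then 5.18 and 3.12 beside 7.25 and 7.62. Both late values were below all 8 DMSO arrays, and the last was under the level filter. The difference at 9 and 10 h was -3.29 ± 0.42 (SE, adjusted p = 0.000203), and -3.14 ± 0.47 (SE, adjusted p = 0.00238) after quantile normalization. With the 10 h value set at the filter level of 5, the late difference was -2.35 as deposited and -2.11 after quantile normalization, that is at least 5.09-fold and at least 4.31-fold lower, and the fitted sizes rest on a value near background. The change from the difference at 7 and 8 h was -3.14 ± 0.60 (SE, adjusted p = 0.0111) as deposited, and -2.99 ± 0.67 (SE, adjusted p = 0.0375) after quantile normalization.

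EXO1 read 9.96, 9.79, 9.19 and 8.78 with nocodazole, beside 10.10, 10.07, 10.38 and 11.22 with DMSO at those hours. The late difference was -1.82 ± 0.26 (SE, adjusted p = 0.000402), and -1.25 ± 0.19 (SE, adjusted p = 0.00252) after quantile normalization. The late nocodazole values were also below the lowest DMSO array of any hour, 10.05 as deposited and 9.87 after quantile normalization. MSH6 read 9.22, 9.42, 9.16 and 9.11, and its second probe set had a late difference of -2.52, beside -1.46 ± 0.23 (SE, adjusted p = 0.000697) for the first. The 4 MSH6 values lay below all 8 DMSO values as deposited, but after quantile normalization, at 9.08, 9.22, 9.49 and 9.54, those of 9 and 10 h were above the lowest DMSO array of 9.42, and the late difference was -0.89 ± 0.15 (SE, adjusted p = 0.00363). At 7 and 8 h the MSH6 difference was -0.57 ± 0.23 (SE) as deposited and did not pass.

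BARD1 read 7.90, 7.60, 6.52 and 5.56 with nocodazole, falling below its lowest DMSO value of 7.71. Its late difference was -1.94 ± 0.32 (SE, adjusted p = 0.000837), and -1.46 ± 0.30 (SE, adjusted p = 0.00842) after quantile normalization, while its second probe set differed by -0.79 and -0.31 on these scales. RAD54B read 9.69, 9.82, 8.90 and 8.68, with a late difference of -1.19 ± 0.24 (SE, adjusted p = 0.00242), and -0.59 ± 0.14 (SE, adjusted p = 0.0127) after quantile normalization. FANCG differed by -0.97 ± 0.21 (SE, adjusted p = 0.00375), and by -0.37 ± 0.11 (SE, adjusted p = 0.0355) after quantile normalization. Its late nocodazole values were below every DMSO array on both scales, but after quantile normalization the call was lost with any 1 hour left out.

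XRCC2 was the only member called higher as deposited. It read 7.71, 6.71, 7.70 and 8.14 with nocodazole, so the values of 7, 9 and 10 h were above every DMSO value and that of 8 h was not. As deposited it was not called without the 9 h or the 10 h arrays. The late difference was 1.08 ± 0.32 (SE, adjusted p = 0.0166), and 1.69 ± 0.35 (SE, adjusted p = 0.00787) after quantile normalization. Its only kept probe set is of the type that the array's naming marks as open to cross-hybridization. The 8 markers of other tissues, mostly below the level filter, had a median of 3.22 at 9 and 10 h of DMSO and 3.92 at 9 and 10 h of nocodazole, and the part of this background in the XRCC2 value was not tested.

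At 9 and 10 h of nocodazole PALB2 and MRE11 were below DMSO on both scales and called on neither. They differed by -0.72 and -0.55 as deposited, and by -0.41 and -0.09 after quantile normalization. For the other members the sign or the call turned on the scale. BRIP1 (-1.14 ± 0.35 SE, adjusted p = 0.0184), CHEK1 (-0.91 ± 0.20 SE, adjusted p = 0.00432), RAD50 (-0.96 ± 0.23 SE, adjusted p = 0.006) and FANCL (-0.89 ± 0.25 SE, adjusted p = 0.0134) were called lower as deposited. After quantile normalization these 4 differed by -0.52, -0.36, -0.33 and -0.25 and did not pass, and nor did RMI1, ATM and RAD51AP1, which were called at -0.74, -0.69 and -0.52 as deposited. The nocodazole values behind them were 10.12, 9.91, 9.51 and 9.58 for CHEK1, 10.43, 10.51, 9.86 and 9.94 for RMI1 and 8.49, 8.60, 8.09 and 8.02 for FANCL. BRCA1 and ATR changed sign, from -0.20 and -0.23 as deposited to 0.42 ± 0.13 (SE, adjusted p = 0.0397) and 0.34 ± 0.11 (SE, adjusted p = 0.0382) after quantile normalization. Both of these calls were lost with any 1 hour left out. ATR read 9.90, 9.95, 9.65 and 9.51 with nocodazole as deposited. On the deposited scale 17 of the 27 members had both late nocodazole values below all 8 DMSO arrays (63%, against 39.8% of all genes), and after quantile normalization 8 did (29.6%, against 18%). The 8 were BARD1, BLM, EXO1, FANCG, FANCL, MRE11, RAD54B and RMI1.

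**Figure D3:**
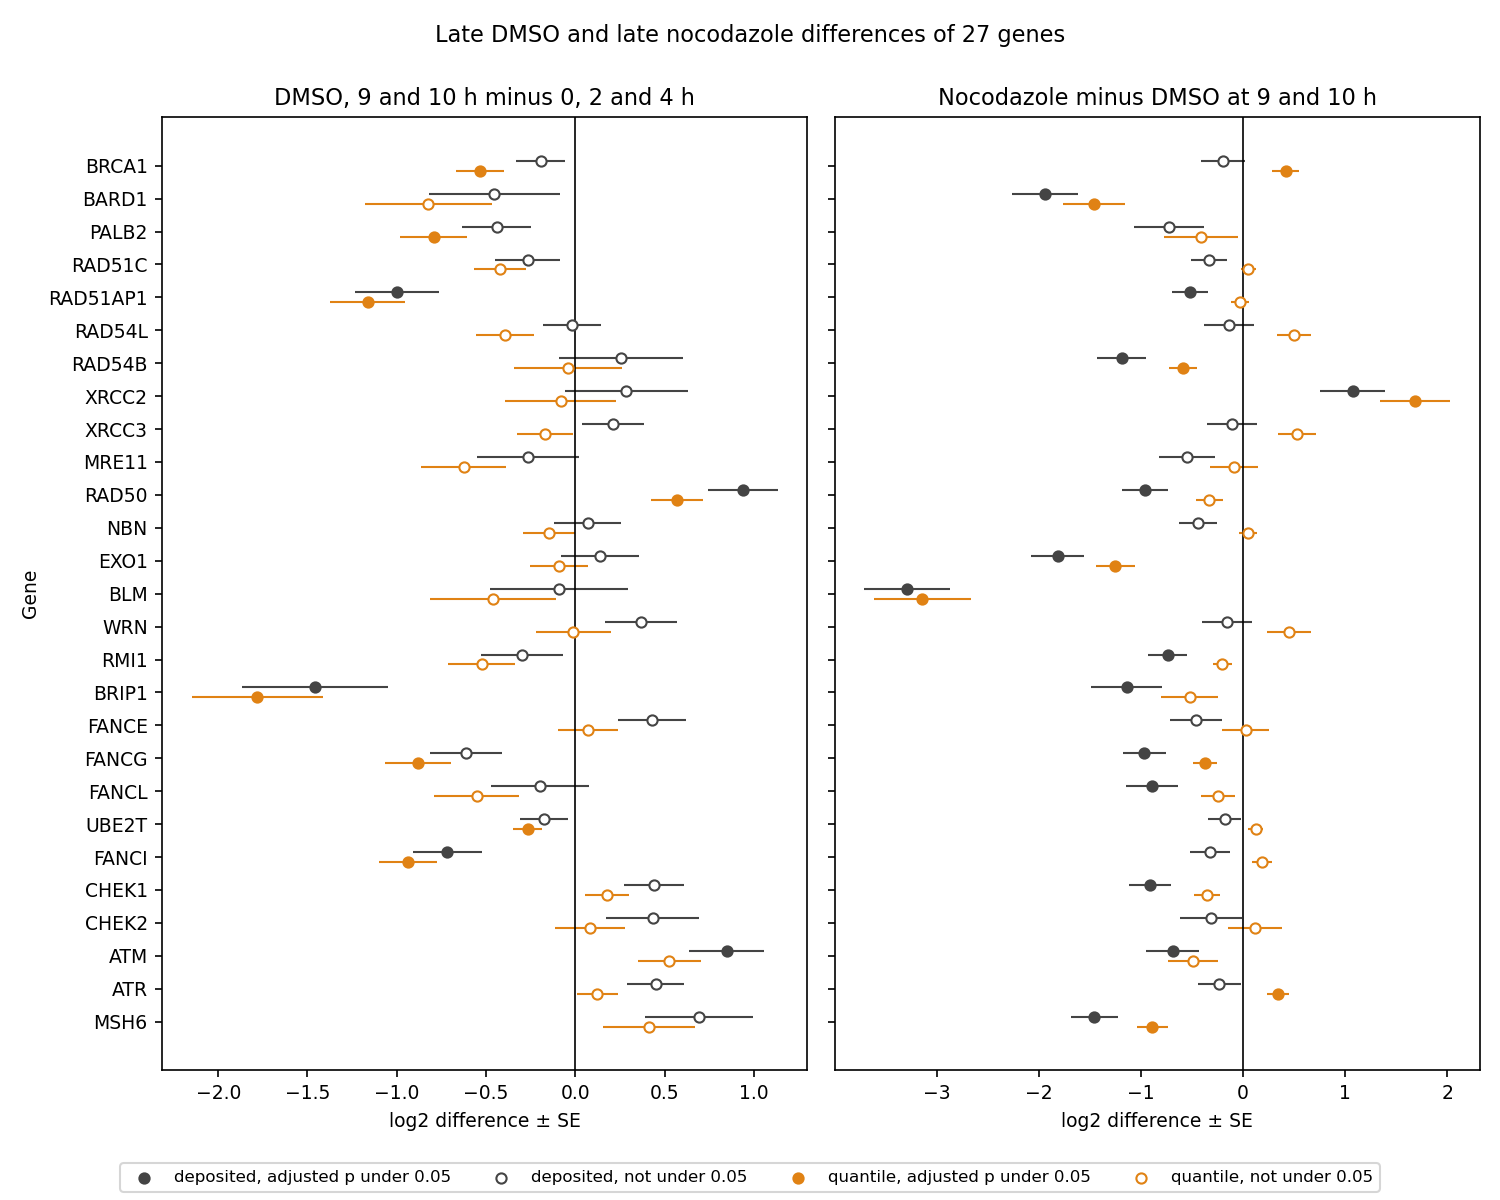
Estimated log2 differences with standard errors for the 27 genes, late against early DMSO hours (left) and nocodazole against DMSO at 9 and 10 h (right), as deposited (grey) and quantile normalized (orange), with filled points where the adjusted p was under 0.05. BLM is farthest left in the nocodazole panel at -3.29 and -3.14, XRCC2 is farthest right at 1.08 and 1.69, and BRIP1 is farthest left in the DMSO panel at -1.46 and -1.78.

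RAD54L, XRCC3, MRE11, NBN, WRN, FANCE and CHEK2, 7 of the 27, passed none of the main tests on either scale with the probe set used. Their DMSO signals spanned from 0.40 (RAD54L) to 0.94 (CHEK2) on the log2 scale as deposited. RAD54L and XRCC3 came nearest, with nocodazole differences at 9 and 10 h of 0.50 ± 0.17 (SE, adjusted p = 0.05) and 0.53 ± 0.18 (SE, adjusted p = 0.0532) after quantile normalization. As deposited these were -0.14 and -0.11. The NBN probe set used differed by -0.44 at those hours as deposited and by 0.05 after quantile normalization. Its other kept probe sets differed by -0.64, -1.18 and -1.16 as deposited, and by -0.04, -0.59 and -0.55 after quantile normalization. As deposited, NBN was called there with the mean of its probe sets and with 1 fit over all 12 arrays.

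The change of the nocodazole difference from 7 and 8 h to 9 and 10 h was called for BLM, BARD1, EXO1 and RAD54B as deposited, all lower, 4 of 27 against 10.3% of all genes. After quantile normalization BLM alone was called, 1 of 27 against 3.8%. As deposited the count moved widely with 1 hour left out. Each such run leaves 1 array per treatment in a window. After quantile normalization the count over all genes moved widely in these runs too, so the movement does not describe the members alone. After quantile normalization BLM lost its call without the 7 h or the 8 h arrays.

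Other genes of these pathways were taken from 8 lists with 86 genes, of which 69 were kept, and are described by the same tests and against the same shares of all genes. In the DMSO course 19 of the 69 passed as deposited, against 21.8% of all genes, and 35 after quantile normalization, against 40.1%, and EME1, a nuclease subunit that cuts joined molecules, had the widest span, 3.02 as deposited (adjusted p = 0.0157). MDC1, the scaffold that gathers factors at breaks, was higher at 9 and 10 h than at 0 to 4 h by 1.60 ± 0.33 (SE, adjusted p = 0.0205), and by 1.27 ± 0.30 (adjusted p = 0.0232) after quantile normalization. CDC25B, a phosphatase that drives entry into mitosis, was higher by 0.71 ± 0.17 (adjusted p = 0.0303), and SFR1, a recombination factor, was lower, at -1.27 ± 0.33 (adjusted p = 0.0368). No other gene of the 69 passed in that window as deposited. After quantile normalization 12 of the 69 were lower, against 13.7% of all genes, and 2 higher, against 9.16%. Among the lower were RECQL at -0.77 and USP1, which removes the mark from FANCI and its partner, at -0.65.

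At 9 and 10 h of nocodazole 30 of the 69 were lower and 2 higher as deposited, against 40.8% and 4.42% of all genes, and 16 lower and 13 higher after quantile normalization, against 17.7% and 17.4%. HUS1, a subunit of the checkpoint clamp, differed by -2.38 ± 0.45 (adjusted p = 0.0016), DNA2, a resection nuclease, by -1.99 ± 0.32 (adjusted p = 0.000695), and RNF168, which ubiquitinates chromatin at breaks, by -1.91 ± 0.24 (adjusted p = 0.000187). After quantile normalization these were -2.27, -1.84 and -1.28, and all 3 passed there too. The 10 h values of HUS1 and DNA2, 3.90 and 4.45 as deposited, were under the level filter, and with them set at 5 the differences were -1.84 and -1.72. MSH3, a mismatch sensor subunit, was higher by 1.07 ± 0.24 (adjusted p = 0.00426), and by 1.30 after quantile normalization. RAD51B, which acts in homologous recombination, was higher by 0.88 as deposited and passed on both scales. The late DMSO values of MSH3 and RAD51B averaged 4.53 and 4.39, under the level filter, and with them set at 5 the differences were 0.59 and 0.27 as deposited. Of the checkpoint clamp and mediator list, 7 of 11 kept genes were lower as deposited, and 5 lower and 1 higher after quantile normalization. Of break signalling 8 of 13 were lower as deposited, and 4 lower and 1 higher after quantile normalization. Of end joining none of 8 was called as deposited, and 1 lower and 4 higher after quantile normalization.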

How the data were processed

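Total RNA of 12 HCT116 cultures was hybridized to Affymetrix U133 Plus 2.0 arrays, 1 per condition, with the treatments and hours taken from the sample labels. The authors deposited a log2 signal for each probe set of an array, from GC-RMA (version and genome build not given in the sources used here). GC-RMA corrects background from probe sequence, so low signals sit near a floor and their differences are compressed. All 12 columns were used, and 0 columns belonged to other samples. Of 54675 probe sets, 41097 had 1 gene symbol in the platform annotation, 1801 several and 11777 none. A probe set was kept if it had 1 symbol and reached a log2 signal of 5 on 2 arrays or more (15030), with the highest mean representing each gene (9130 genes).

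Differences were fitted with limma 3.58.1 (R 4.3.3; lmFit, eBayes with intensity trend) over all 9130 genes, with Benjamini-Hochberg adjustment over all of them and an adjusted p of 0.05 as threshold. DMSO hours were compared as windows (0, 2 and 4 h; 6, 7 and 8 h; 9 and 10 h) and as a spline with 3 degrees of freedom, and nocodazole with DMSO within the hour at 7 to 10 h. Since hours stand in for replicates, each p rests on differences between hours. In the window tests this is the scatter of the hours within a window, and in the curve test the scatter around the spline. In the nocodazole tests it is how far the paired difference varies between hours. The number of arrays limits the precision. Full values are given for members past the threshold in any fit. Other genes of the pathways are named by size among those past it, at most 3 per direction. Quantile normalization over all 54675 probe sets, other filters, other probe set rules, other variance settings and each hour left out were run as alternatives. The code was tested on simulated data. The members and lists were chosen with earlier results of these data known. Promoter stretches are RefSeq's on GRCh38.p14, and 32 of the 36 genes had an entry. Python 3.11.15 with pandas 2.3.3 and matplotlib 3.10.9 was used for tables and figures.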

Additional observations from a re-analysis of the deposited data

Results flagged for a closer look

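The nocodazole difference of 4 members changed between 7, 8 h and 9, 10 h by the test of the change itself (limma, adjusted over all 9130 genes, deposited scale). The change was -3.14 on the log2 scale for BLM, -1.77 for BARD1, -1.61 for EXO1 and -1.34 for RAD54B, with adjusted p of 0.0111, 0.0274, 0.0194 and 0.0257. The same change over all genes had a median of -0.44. After quantile normalization the change of BLM was -2.99 with an adjusted p of 0.0375, and the other 3 did not pass. The nocodazole value of BLM at 10 h, 3.12 as deposited, was under the level filter of 5, so the size of its change rests on a value near background. Each value rests on 8 arrays, 1 per condition, and the part of the general shift of the 9 and 10 h nocodazole arrays in it was not tested.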

How the results depend on the processing

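Counts of members past the threshold moved with the settings as follows. From early to middle DMSO hours the deposited count was 0, against 5 after quantile normalization, 5 with 1 fit over all 12 arrays, and 0 to 4 with each hour left out. For late against early hours it was 5, against 8 after quantile normalization, 1 without the level filter, 3 without the intensity trend and 0 to 5 with each hour left out. The curve test gave 9, against 15 after quantile normalization and 4 to 9 with each hour left out. For nocodazole over 7 to 10 h it was 0, against 9 with 1 fit over all 12 arrays and 0 to 1 with an hour left out. At 9 and 10 h it was 14, against 9 after quantile normalization and 6 to 17 with an hour left out. The change of the difference gave 4, against 1 after quantile normalization, 9 without the filter and 9 with the filter at 7. It moved widely with an hour left out. Signs turned for BRCA1 late against early with the mean of its probe sets (0.065), for BRCA1 and ATR at 9 and 10 h of nocodazole after quantile normalization (0.42 and 0.34), and for ATR without the 10 h arrays (0.0065, the range with an hour left out being -0.47 to 0.0065). Over all 27 members 11 differences at 9 and 10 h of nocodazole turned sign with quantile normalization (26 below 0 as deposited, 15 after), and 6 late against early (14 and 20 below 0). The other counts stayed within 1.5 times, but the genes behind them could change. With the mean of the kept probe sets, BRIP1, FANCI and RAD50 lost the late against early call, and ATR and MSH6 gained it. In the curve test BRIP1, FANCI, RAD50 and RAD51C lost theirs with that rule, and ATR gained it. Quantile normalization with an hour left out was added after seeing the data and gave 11 to 15 members in the curve test and 4 to 8 at 9 and 10 h of nocodazole. The causes were not tested. Nocodazole and DMSO arrays were paired by hour, and without the hour block the count over 7 to 10 h stayed 0. Signals under 5 are near background, and with 1 array per condition a single array can set a call.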
